A study of Bos taurus with 6 samples.

Results

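The genes described here are 4 adipokines (CFD, ADIPOQ, LEP and RETN) and 5 transcription factors of fat cell formation (PPARG, CEBPA, CEBPB, CEBPD and KLF5), measured in cattle muscle under 2 levels of dietary vitamin A. They were taken by name from the annotation of the array. A probe set, which is a group of short probes that reads 1 transcript, was used if the annotation gave it exactly 1 gene symbol and that symbol was on the list. All 9 genes were found, with 14 of the 24016 tested probe sets. CFD, ADIPOQ, RETN, PPARG and CEBPA have 1 probe set each, LEP, CEBPB and KLF5 have 2, and CEBPD has 3.

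Muscle came from the longissimus thoracis, a long muscle of the back, of 6 Japanese Black steers, which are castrated males of a beef breed known for marbled meat. By the labels, all 6 began at an age of 13 to 14 months and reached 20 to 21 months. They were fattened for 7 months with feed set for a gain of 1.0 kg a day. The ages given in days, 589 to 618, put the youngest steers slightly under 20 months. The 3 supplemented steers took vitamin A by mouth once a week, in a dose of 296.8 IU per kg of body weight, which the 3 restricted steers did not get. No genotype other than the breed is given in the labels, and each array holds the RNA of a different steer.

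Adipokines are proteins that fat cells release into blood and tissue. Fat cells form in a cascade: C/EBP-beta and C/EBP-delta come on early in precursor cells, KLF5 acts next to them, and PPAR-gamma and C/EBP-alpha then switch on each other and the genes of the mature cell, adiponectin among them. In muscle these cells make up the marbling fat between fibres. Retinoic acid, the active form of vitamin A, is known to block this cascade in cultured precursor cells.

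The deposited values are read as log2 values, but they differ very little between arrays, for a reason the sources used here do not give. Differences are therefore not read as fold changes. They are given in millionths (1e-06) of a deposited log2 unit and also in units of the probe set's own standard deviation (SD) within a diet, pooled over both diets. Over the 24016 tested probe sets the median distance between the highest and the lowest array was 0.677 millionths, and 13.2% of them ranged over more than 10 millionths. Among the member probe sets, 4 of 14 ranged over more than 10 millionths, those of CFD, ADIPOQ and 1 each of CEBPB and CEBPD. The other 10 lay below that, down to 0.0230 millionths for RETN, whose deposited values differ only in the last 2 of 9 decimals. The widest was CEBPD at 1129 millionths, in the 99.2nd percentile of all tested probe sets, and RETN stood in the 1.95th. The plot of the spread over 6 arrays places each member among all probe sets.

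**Figure D1:**
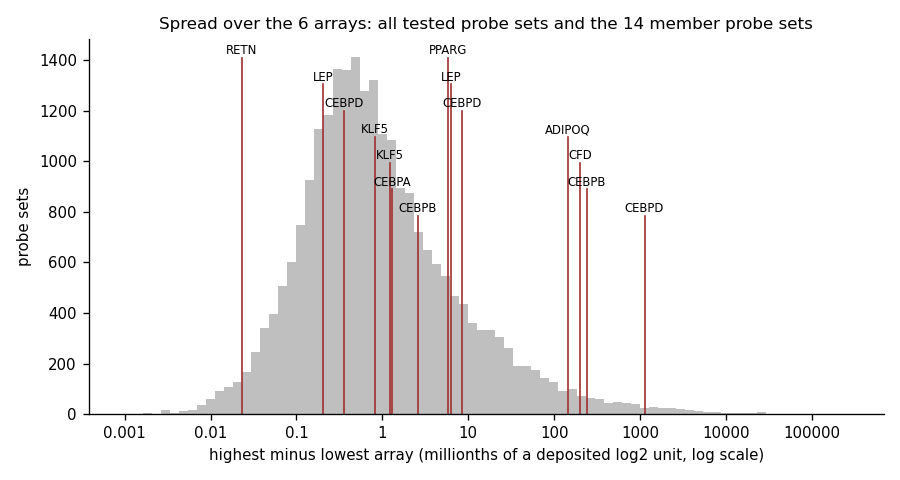
Histogram of the highest minus the lowest of the 6 arrays for the tested probe sets whose arrays differ (grey; x axis in millionths of a deposited log2 unit, log scale; y axis, number of probe sets), with the 14 member probe sets as red lines. RETN is at 0.0230 millionths, and ADIPOQ, CFD, 1 probe set of CEBPB and 1 of CEBPD lie above 100.

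Muscle fibre markers fixed for the tissue check were among the highest probe sets: all 9 measured of 12, among them ACTA1 and CKM, stood at the 99.65th percentile of probe set means or above. Of 8 adipocyte markers that are not members, 6 were measured (CIDEC, FABP4, LIPE, PCK1, AQP7 and GPD1), all above the median level. The member probe sets had means from 4.95 to 5.92 deposited log2 units, 9 of 14 at or above the median of all tested probe sets, 5.14. Probes differ in how strongly they bind, so these levels do not rank the genes. In such bulk samples, fewer fat cells and less RNA per fat cell cannot be told apart. Age at sampling was 610.0 ± 9.17 days for supplemented steers and 598.3 ± 11.4 days for restricted ones (SD over 3 steers per diet). An exact two-sided permutation test of age gave p = 0.2, where the smallest this design allows is 0.1.

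Each probe set was tested for restricted minus supplemented steers with limma, adjusted over all 24016 probe sets by the Benjamini-Hochberg method. No member probe set passed the adjusted threshold of 0.05, and each had an adjusted p of 1. Over all probe sets 0.00416% passed. At a limma unadjusted p under 0.05, 2 member probe sets were higher in restricted steers, CFD and 1 of CEBPD, and 0 were lower, beside 1.91% and 2.17% of all probe sets. The same 2 were the only ones of the 14 whose diets did not overlap, against 4.12% of all probe sets with restricted steers higher and 4.64% lower. By sign, 11 of 14 member probe sets were higher in restricted steers, where 48.3% of all probe sets were, and 5 of 14 were once all arrays were given 1 common median; array medians span 8.88 millionths, more than the range of 10 of the 14. Their median difference was 0.52 within-group SDs, and that of all tested probe sets was -0.03. With 3 steers in each group the unadjusted 95% intervals are wide, as the plot of the differences shows.

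**Figure D2:**
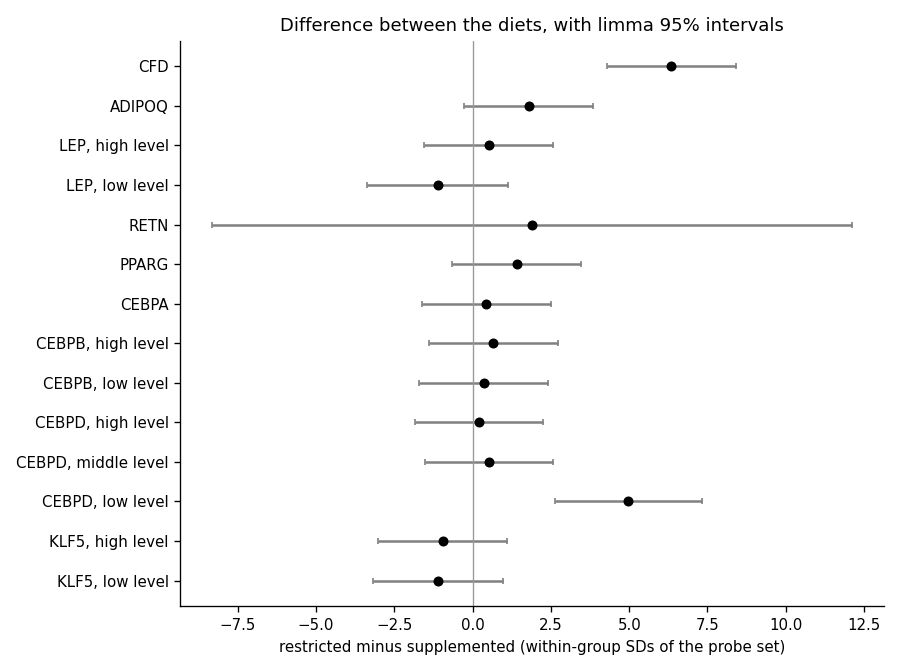
Difference between restricted and supplemented steers for each of the 14 probe sets (points), in within-group SDs of that probe set, with limma's unadjusted 95% intervals (bars). The intervals of CFD and of 1 CEBPD probe set lie above 0, and the other 12 span 0.

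CFD encodes complement factor D, also called adipsin, a protease that fat cells secrete and that starts the alternative pathway of complement by cutting factor B. Its deposited values were 5.747803, 5.747807 and 5.747746 in supplemented steers 1 to 3, and 5.747933, 5.747948 and 5.747945 in restricted steers 1 to 3. As deviations from the mean of the 6 arrays these are -60.9, -56.7 and -117.5 millionths against 69.2, 84.3 and 81.6. All 3 restricted steers lay above all 3 supplemented ones, and the restricted steers were close together. The gap between the groups was 125.9 millionths, or 62.4% of the range of the probe set. Group means were -78.4 ± 34.0 and 78.4 ± 8.03 millionths (SD, n = 3 each). The difference was 156.7 ± 19.0 millionths (SE), with an interval from 106.0 to 207.4, and equals 6.35 within-group SDs (limma unadjusted p = 0.000717, adjusted p = 1). By unadjusted p CFD was the 7th of 24016 probe sets.

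When single steers were left out, the difference of CFD ran from 137.1 millionths without supplemented steer 3 to 167.6 without supplemented steer 2. The limma adjusted p without supplemented steer 3 was 0.262, the lowest of the 14 alternatives tried. With age as a covariate the difference was 147.5 millionths (limma unadjusted p = 0.00615). Under quantile normalization it was 121.6 millionths, the limma unadjusted p was 0.190, and the groups overlapped. The restricted group had the higher mean for CFD in each of the 14 alternatives, and in none did it pass the adjusted threshold.

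ADIPOQ encodes adiponectin, the most abundant hormone of fat cells, which acts on muscle to promote fatty acid oxidation. The deviations of supplemented steers 1 to 3 were 18.0, -57.9 and -73.7 millionths, and those of restricted steers 1 to 3 were 70.9, 1.89 and 40.8, around a mean level of 5.211687. Supplemented steer 1 lay above restricted steer 2, so the groups overlapped. The difference was 75.7 ± 32.7 millionths (SE), or 1.78 within-group SDs, with an interval from -11.4 to 162.9 millionths (limma unadjusted p = 0.0747, adjusted p = 1). It ran from 57.8 millionths without supplemented steer 3 to 103.7 without supplemented steer 1, and was 47.4 with age as a covariate.

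LEP encodes leptin, the hormone by which fat stores signal to the brain. Its probe sets did not run in the same direction. In the one with the higher level the deviations were -1.58, 2.21 and -2.68 millionths in supplemented steers 1 to 3 and 3.58, -1.94 and 0.402 in restricted steers 1 to 3. Here restricted steer 1 was highest and supplemented steer 3 lowest, with the diets intermingled, and the difference was 1.37 ± 2.06 millionths (SE) or 0.51 SDs. In the one with the lower level they were 0.120, 0.0438 and -0.0442 millionths against 0.0258, -0.0612 and -0.0842. There the 6 steers spanned 0.204 millionths, with a difference of -0.0797 ± 0.0600 (SE) or -1.12 SDs. Without single steers the high-level difference ran from -0.0828 to 2.82 millionths and the low-level one from -0.122 to -0.0397. LEP thus had no common direction over its probe sets.

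RETN encodes resistin, named for its link to insulin resistance in rodents, where fat cells make it, while human macrophages are its main source. The whole range of its probe set was 0.0230 millionths, from -0.0108 in supplemented steer 2 to 0.0122 in restricted steer 1. Supplemented steer 3 and restricted steer 2 overlapped in the middle, at 0.00117 and -0.000833. The difference was 0.0123 ± 0.0249 millionths (SE), or 1.90 of its own very small within-group SDs (limma unadjusted p = 0.644). In limma the variance of each probe set is drawn towards that of the others, which is why the SE of RETN exceeds what its own SD gives. At a level in the 27.0th percentile of probe sets, the table gives next to no variation of RETN to compare.

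**Figure D3:**
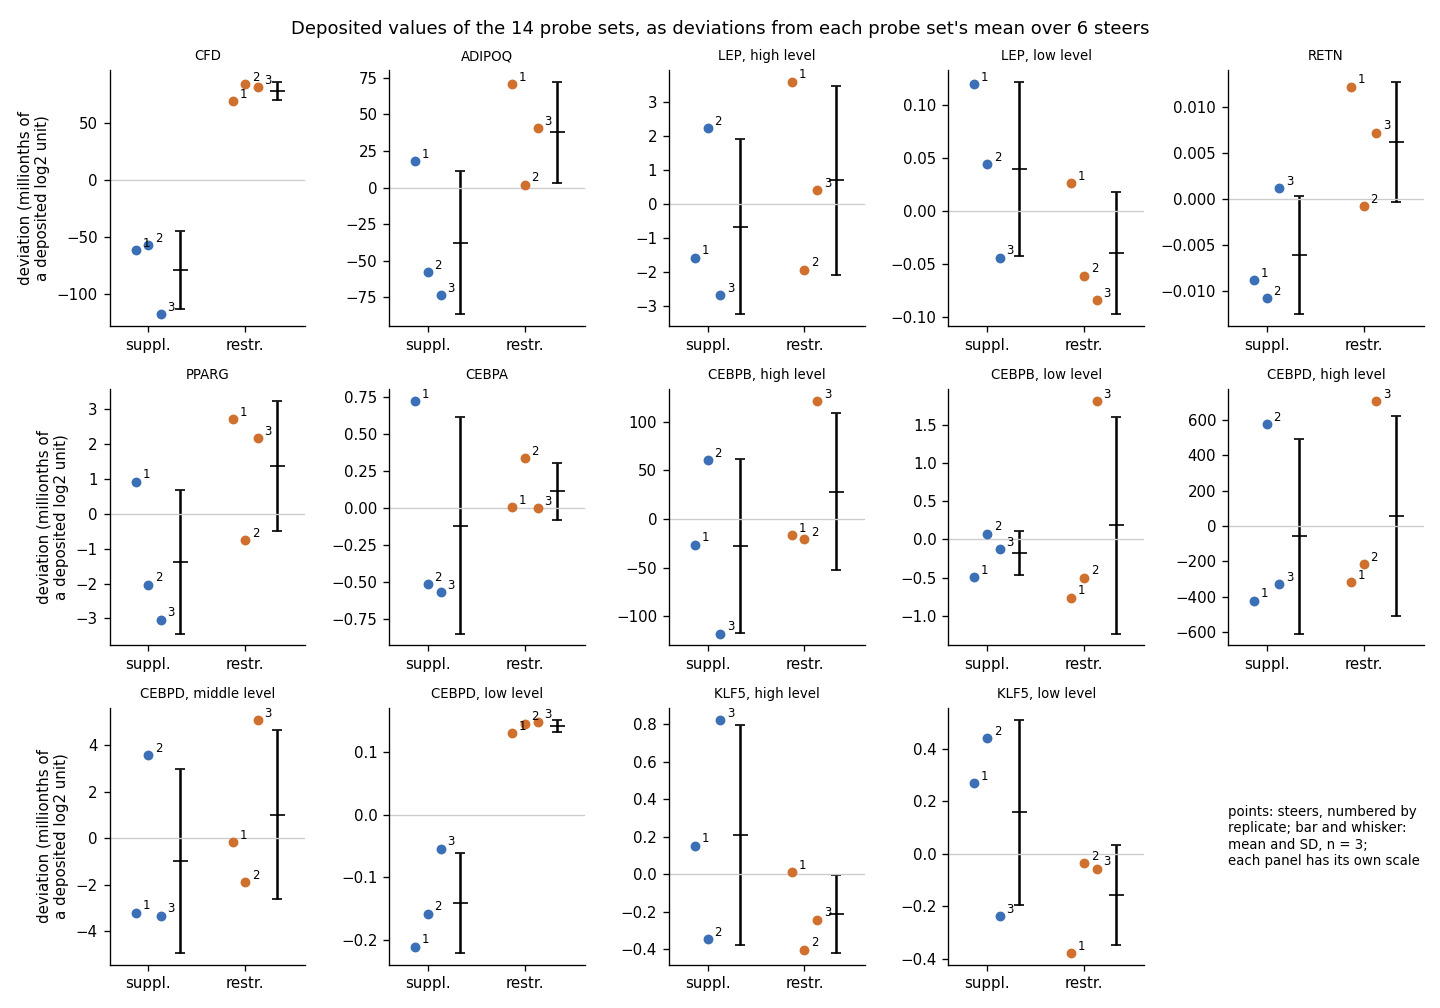
Deposited values of the 14 probe sets as deviations from each probe set's mean over the 6 steers (y axis, millionths of a deposited log2 unit, a separate scale in each panel), by diet. Points are steers with their replicate numbers, and bars and whiskers are mean and SD (n = 3). Restricted steers lie above all supplemented ones for CFD and for the low-level probe set of CEBPD, and the groups overlap in the other 12 panels.

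CEBPB and CEBPD encode C/EBP-beta and C/EBP-delta, the early factors of the cascade, which also respond to inflammation and glucocorticoids. CEBPD has a high-level, a middle-level and a low-level probe set. In the high-level one, the deviations were -420.6, 574.5 and -328.7 millionths in supplemented steers 1 to 3 and -316.9, -216.2 and 707.9 in restricted steers 1 to 3. Supplemented steer 2 and restricted steer 3 stood far above the other 4, so the variation of CEBPD lay between steers of the same diet. The difference between the diets was 116.5 ± 429.9 millionths (SE), or 0.21 within-group SDs (limma unadjusted p = 0.798). Without restricted steer 3 it turned to -208.3, and without supplemented steer 2 it was 432.9; it was also below 0 without supplemented steer 1 (-64.6) or 3 (-18.7).

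The middle-level probe set of CEBPD had the same 2 steers on top, at 3.56 and 5.07 millionths, with the other 4 between -3.34 and -0.191. Its difference was 1.99 ± 2.93 millionths (SE), or 0.52 SDs. The low-level one had -0.2115, -0.1585 and -0.0545 millionths in supplemented and 0.1305, 0.1455 and 0.1485 in restricted steers 1 to 3, without overlap of the groups. Its difference was 0.283 ± 0.0502 millionths (SE), or 4.97 SDs (limma unadjusted p = 0.00344, adjusted p = 1). It does not follow the other probe sets of the gene, its level is in the 14.2nd percentile of all probe sets and its whole range is 0.360 millionths. A shift of all arrays to the same median turned its sign.

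CEBPB had the same 2 steers on top as CEBPD in its high-level probe set, though less far apart from the rest. Supplemented steers 1 to 3 had -26.6, 60.7 and -118.0 millionths, and restricted steers 1 to 3 had -16.7, -20.7 and 121.3. Again restricted steer 3 was highest, followed by supplemented steer 2. The difference was 56.0 ± 65.7 millionths (SE), or 0.66 SDs (limma unadjusted p = 0.437), and was 9.30 without restricted steer 3, 11.0 without supplemented steer 3 and 100.3 without supplemented steer 2. In its low-level probe set restricted steer 3 stood alone at 1.81 millionths, the other 5 lying from -0.762 to 0.0737, with a difference of 0.365 ± 0.789 (SE). At the high-level probe sets the Pearson correlation of CEBPB and CEBPD was r = 0.874 (exact permutation p = 0.0167). After adjustment over all 36 pairs of member genes that p was 0.3. Because the CEBPD values fall into a high pair and 4 low steers, no relation is read from this correlation.

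KLF5, a zinc finger factor that works with C/EBP-beta and C/EBP-delta on the PPARG promoter, was the member gene with both probe sets lower in restricted steers. In its high-level probe set the deviations were 0.153, -0.344 and 0.823 millionths in supplemented and 0.0127, -0.401 and -0.242 in restricted steers 1 to 3. Supplemented steer 3 was far the highest there, and in the low-level probe set it was the second lowest at -0.236. The differences were -0.421 ± 0.340 millionths (SE) or -0.96 SDs, and -0.314 ± 0.220 (SE) or -1.11 SDs, with limma unadjusted p values of 0.277 and 0.218. Both sizes rested on single steers. Without supplemented steer 3 they were -0.1145 and -0.511 millionths, and without supplemented steer 2 they were -0.698 and -0.173.

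PPARG encodes the nuclear receptor on which fat cell formation depends, and which forms a pair with the retinoid X receptor. Supplemented steers 1 to 3 had 0.926, -2.03 and -3.03 millionths, and restricted steers 1 to 3 had 2.71, -0.750 and 2.17, around a level of 5.249043. Restricted steer 2 fell below supplemented steer 1, as for ADIPOQ. The difference was 2.76 ± 1.51 millionths (SE), or 1.41 SDs, with an interval from -1.27 to 6.79 (limma unadjusted p = 0.135, adjusted p = 1). It was 0.535 millionths once all arrays were given 1 common median (limma unadjusted p = 0.778), and quantile normalization left PPARG with equal group means.

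CEBPA encodes C/EBP-alpha, the partner of PPAR-gamma in the mature fat cell. Its deviations were 0.726, -0.511 and -0.565 millionths in supplemented and 0.00900, 0.339 and 0.00200 in restricted steers 1 to 3, so supplemented steers held both the highest and the lowest value. The difference was 0.233 ± 0.413 millionths (SE), or 0.44 SDs. It was -0.149 with age as a covariate, and the shift to 1 common median made it -1.99. Without single supplemented steers it was 0.655 (steer 1), 0.0362 (steer 2) and 0.00917 (steer 3).

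The 6 steers came in the same order for ADIPOQ and PPARG: restricted 1, restricted 3, supplemented 1, restricted 2, supplemented 2 and supplemented 3. Over the 36 pairs of the 9 genes, each taken at its probe set of highest level, this pair had the highest Pearson correlation, r = 0.979 (n = 6 steers, exact permutation p = 0.00139, 0.05 after adjustment over the 36 pairs). Spearman's rho was 1 (exact permutation p = 0.00278, adjusted 0.1). Without the 2 steers farthest from the median of ADIPOQ, r was 0.939. No pair had an adjusted p under 0.05. Both exact p values of this pair are the smallest that 6 steers allow. Adjusted over 36 pairs, a single top pair could therefore not fall under 0.05, however strong its correlation. The pair was singled out as the highest of 36, and both genes share the same 6 arrays. The array medians, too, were highest for restricted steer 1 (4.11 millionths from their mean) and lowest for supplemented steer 3 (-4.76). Between these 2 arrays the order of the medians was another one: supplemented 1, restricted 3, supplemented 2 and restricted 2. The medians span 8.88 millionths, more than the 5.75 over which PPARG ranged but less than the 144.6 of ADIPOQ. The median deviation of an array from the probe set means was at most 0.00817 millionths. How the correlation stands once all arrays are given 1 common median was not tested.

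CFD did not share that order. Restricted steer 2, the lowest restricted steer for ADIPOQ and PPARG, was the highest for CFD, and supplemented steer 1, the highest supplemented steer for ADIPOQ, was second among supplemented steers for CFD. Its correlation with ADIPOQ was r = 0.772 (exact permutation p = 0.107) and rho = 0.49 (exact permutation p = 0.356), and with the 2 steers farthest from the median of CFD left out r was 0.766. After adjustment over the 36 pairs these p values were 0.694 and 0.711.

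**Figure D4:**
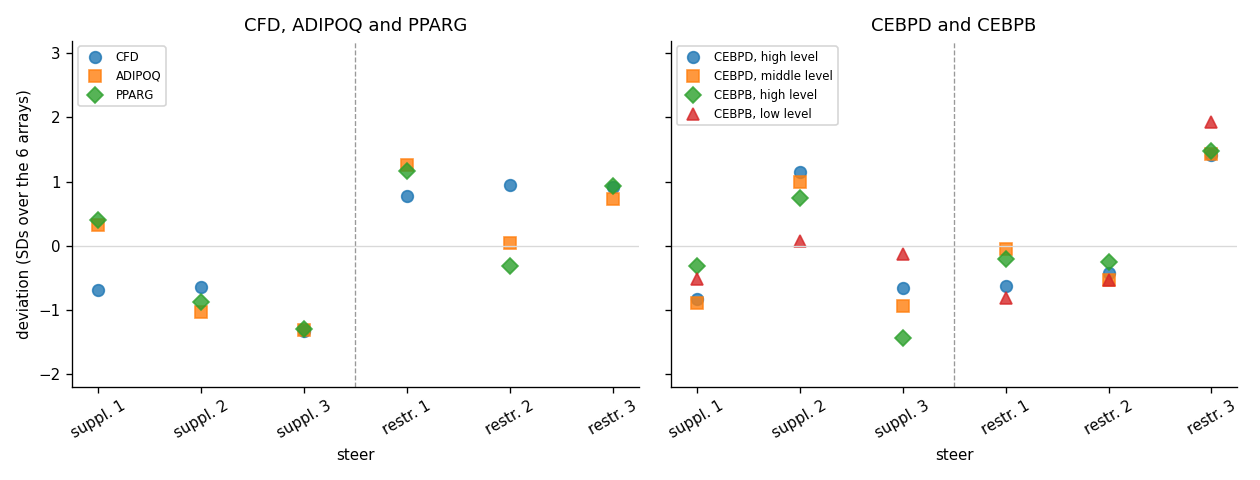
Deviations by steer, each probe set scaled to its SD over the 6 arrays (y axis), for CFD, ADIPOQ and PPARG (left) and for 2 probe sets each of CEBPD and CEBPB (right). In the values as deposited, ADIPOQ and PPARG run together over the steers while CFD separates the diets. Restricted steer 3 is highest in all 4 probe sets on the right.

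Levels of other cell types beside these values were read from fixed marker lists, each as the mean over its genes of values in SDs over the 6 arrays. The adipocyte list (6 of 8 measured) was highest in restricted steer 1 at 1.28 and lowest in supplemented steer 2 at -0.743, and restricted steer 2 had -0.669. The means of the 3 supplemented and the 3 restricted steers were -0.327 ± 0.477 and 0.327 ± 0.977 (SD; exact two-sided permutation p = 0.4). Macrophage markers (7 of 9 measured) ran from -0.589 to 1.20 in supplemented and from -0.556 to -0.0436 in restricted steers (exact two-sided permutation p = 0.5). Neutrophil markers (4 of 6 measured) ran from -0.518 to -0.352 in supplemented and from -0.874 to 1.44 in restricted steers (exact two-sided permutation p = 0.4). Preadipocyte and fibroblast markers (9 of 10 measured) and endothelial markers (all 7) each gave an exact two-sided permutation p = 0.8, and red blood cell markers (5 of 6) 0.6. Skeletal muscle fibre markers (9 of 12 measured) had a lower mean in restricted steers, as had macrophage (-0.265) and preadipocyte and fibroblast markers (-0.106). Muscle means were 0.183 ± 0.222 for supplemented and -0.183 ± 0.397 for restricted steers (SD over 3 per diet). The groups overlapped (exact two-sided permutation p = 0.3), and 3 of the 9 muscle markers were higher in restricted steers. The one that differed most was MYH1, a fast myosin heavy chain, at -3.46 SDs (limma unadjusted p = 0.00836, adjusted p = 1). No marker list separated the diets the way CFD did, and their part in the differences of the members was not tested.

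Genes around the members were taken from lists chosen with earlier results of these data known, each gene at its probe set of highest level. Of 9155 such genes 49.5% were higher in restricted steers, 4.15% were higher and 4.59% lower without overlap of the groups, and 2.15% and 2.47% had a limma unadjusted p under 0.05. None of the genes on these lists passed the adjusted threshold, as 0.0109% of all genes did.

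Genes listed as fat cell lipid genes under PPAR-gamma lay mostly on the restricted side. Whether PPAR-gamma acts on each of them in these samples was not tested. All 6 measured adipocyte markers are also on this list, so it is not separate from the marker check above. Some of its genes also moved together over the steers. FABP4, LPL, CIDEC, SCD, FASN, ELOVL6 and THRSP were each lowest in supplemented steer 2, so its genes do not count as independent observations. Of 28 genes 23 were measured, 21 higher and 2 lower (20 higher once all arrays were given 1 common median, and 13 of the 15 that kept a difference with quantile normalization), with a median of 0.96 SDs beside -0.01 over all genes. In 6 of the 23 restricted steers were higher without overlap (FABP5, CD36, CIDEA, PCK1, ACACA and G0S2). The gap between the groups was 0.654% of the range for FABP5, 0.964% for CIDEA and 2.06% for ACACA. It was 7.61% for G0S2, 12.5% for CD36 and 23.0% for PCK1, beside 62.4% for CFD. DGAT2, which completes triglyceride synthesis, differed by 2.07 SDs (limma unadjusted p = 0.0488). The deviations of DGAT2 were 239.7, -3776 and -2977 millionths in supplemented steers 1 to 3 and 3573, -207.1 and 3148 in restricted steers 1 to 3. That puts supplemented steer 1 above restricted steer 2, as for ADIPOQ and PPARG. G0S2, an inhibitor of fat breakdown, differed by 2.06 SDs (limma unadjusted p = 0.0495) and the fatty acid transporter CD36 by 1.88 SDs (0.0643). GPD1, which makes glycerol phosphate, and the glucose transporter SLC2A4 were the 2 lower ones, at -0.90 and -0.79 SDs.

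Partners and inducers of fat cell formation did not lean to the restricted side, with 6 of 17 measured genes higher and 11 lower (28 listed, median -0.29 SDs, 1 higher with the shift to the same median). NR3C1, the glucocorticoid receptor, had 1.60, 0.998 and 3.91 millionths in supplemented and -0.0847, -3.28 and -3.14 in restricted steers 1 to 3, without overlap. That is a difference of -2.59 SDs (limma unadjusted p = 0.0239), at the higher-level one of its 2 probe sets, the other not being given here. FGF10, a growth factor for fat precursors, differed by 1.18 SDs and the zinc finger factor ZBTB16 by 1.11 SDs. Brakes of fat cell formation had 7 of 11 measured genes higher and 4 lower (24 listed, median 0.27 SDs, 0 without overlap), and 2 higher with that shift. Their smallest p values belonged to TGFB1 (-1.57 SDs), E2F4 (1.37 SDs) and the co-repressor NCOR1 (1.08 SDs).

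Receptors and signalling of adipokines had 3 of 8 measured genes higher and 5 lower (10 listed, median -0.52 SDs). STAT3, which carries the leptin signal into the nucleus, had 5.58, 7.77 and 2.56 millionths in supplemented and -1.90, -9.27 and -4.74 in restricted steers 1 to 3. The groups did not overlap, and the difference was -10.6 ± 2.48 millionths (SE) or -3.30 SDs (limma unadjusted p = 0.0101, adjusted p = 1). STAT3 has 2 probe sets, and only the one of highest level is given here. SOCS3, a STAT3 target that dampens leptin signalling, lay lower without overlap at its probe set of highest level, at -1.93 SDs within a range of 0.204 millionths. Its other probe set went the opposite way, by 0.064 millionths or 0.68 SDs, and the groups overlapped there. The adiponectin-binding cadherin CDH13 differed by 1.05 SDs, and the adiponectin receptors ADIPOR1 and ADIPOR2 by -0.75 and 0.30 SDs.

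Other adipokines were split evenly, 7 of 14 measured genes being higher and 7 lower (29 listed, median -0.05 SDs, 3 higher with that shift). RBP4, the retinol carrier that fat cells release, differed by 2.12 SDs (limma unadjusted p = 0.0456), with supplemented steer 1 at -1.03 millionths just above restricted steer 2 at -2.07. SFRP5 lay higher without overlap at 1.68 SDs, with a gap of 0.075 millionths between the groups. The adiponectin relative C1QTNF7 lay lower without overlap at -1.49 SDs, with a gap of 0.117 millionths. Complement genes around factor D had 5 of 8 measured genes higher and 3 lower (12 listed, median 0.12 SDs, 0 higher with that shift), none without overlap. Factor B (CFB), the substrate of factor D, differed by -0.559 ± 0.430 millionths (SE), properdin (CFP), which stabilises the enzyme that factor D completes, by 0.524 ± 0.405, and CD55, which takes that enzyme apart, by -0.232 ± 0.187. C3, the central complement protein, differed by 0.08 SDs. No other complement gene on that list came near the 6.35 SDs of CFD.

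**Figure D5:**
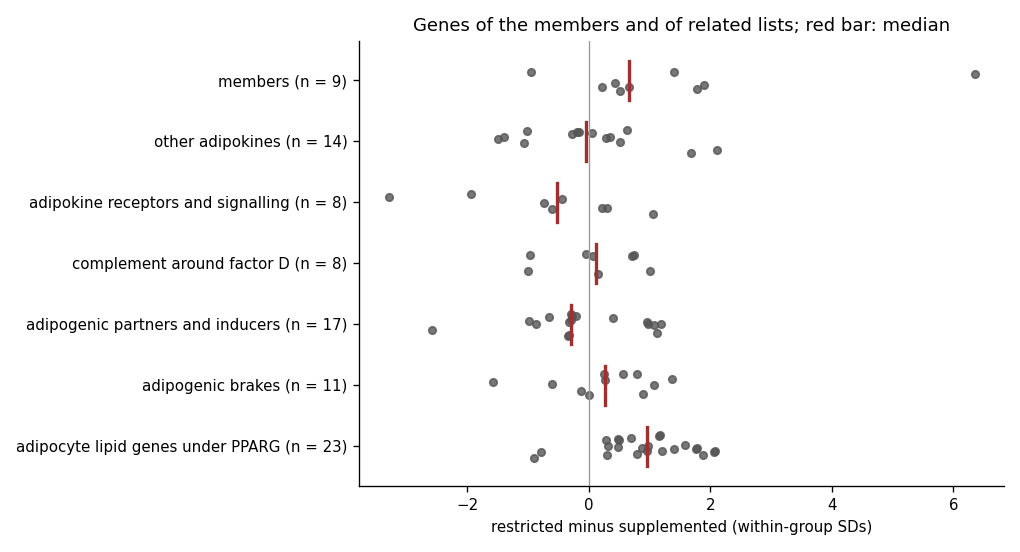
Difference between restricted and supplemented steers in within-group SDs (x axis) for each gene of the members and of 6 related lists (points, each gene at its probe set of highest level), with the median of each list as a red bar. CFD is the point at 6.35 SDs, and the lipid genes under PPARG have the highest median, 0.96 SDs.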

How the data were processed

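RNA from 6 steers was hybridised to 1 array each, of the Affymetrix 3 prime GeneChip type, after labelling 100 ng of total RNA with biotin, per the labels' protocols. The authors deposited 1 table of 24128 probe sets, read here as log2 values from their range; the base of the logarithm and every step before the table are not given in the sources used. With no molecule counts on an array, precision is limited by the number of arrays. Tests left out the 112 control probe sets.

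Values were used as deposited and multiplied by 1e+09 before the fit, a constant that changes no statistic. limma 3.58.1 in R 4.3.3 (lmFit, eBayes without trend) fitted diet alone, with 4 residual and 0.483 prior degrees of freedom and Benjamini-Hochberg adjustment over 24016 probe sets at 0.05. The fit was also run on simulated data, with shifts larger in SDs than the difference of any member. That run therefore does not show how well differences of the members' size are found. Single values were compared with exact permutation tests. The steers are separate animals, so p-values measure the spread between them. All 14 member probe sets matched a current RefSeq gene record by identifier. No genome build is named for the array, so positions are left out.

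Members and gene lists were chosen with earlier results of these data known. Genes named are all probe sets of the members and up to 3 genes per list with the smallest p. For ADIPOQ and CFD the 5 genes with the highest correlation are named too. A few were chosen after their values were seen: ADIPOR1, ADIPOR2, C3, MYH1, SLC2A4, GPD1, genes without group overlap, and the early response genes below. Same-numbered steers of the diets did not deviate together (correlations 0.0374, 0.0151 and 0.0152 over probe sets), so they were not treated as pairs. Alternatives were other normalizations, variance models, age, a replicate block, a level filter and leaving out each steer.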

Additional observations from a re-analysis of the deposited data

How the results depend on the processing

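No member probe set passed the adjusted threshold under any of the 14 alternatives, and those of CFD, ADIPOQ, PPARG, KLF5, the low-level one of LEP and the high-level one of CEBPB kept their direction wherever the group means differed. The array medians span 8.88 millionths, more than the range of 85.9% of probe sets, yet the median deviation of an array from the probe set means was at most 0.00817 millionths. A shift to the same median therefore moves small differences by construction: 5 of 14 member probe sets were then higher and 1 did not overlap, with high-level LEP at -0.856, RETN at -2.21, CEBPA at -1.99, low-level CEBPB at -1.86 and middle- and low-level CEBPD at -0.237 and -1.94 millionths. A shift by the median deviations, added after seeing the data, turned none of the 14. Quantile normalization made 15456 probe sets equal on all arrays, which were left out of that fit; 22 probe sets passed. Of the 14 member probe sets 6 were equal on all arrays and 2 had equal group means; of the other 6, 5 were higher and 1, high-level LEP at -20.8, was lower, and 0 members, CFD included, were free of overlap. With age as a covariate 0 probe sets passed, CEBPA was -0.149 and high-level CEBPD 536.9. With the replicate block 0 probe sets passed, with 2 residual degrees of freedom, and no member call changed. Of the 9 member probe sets at or above the median level, 7 were higher and 1 did not overlap. Without single steers, 1 to 2 probe sets passed, the 2 being without supplemented replicate 3, and 3 to 6 member probe sets did not overlap, as fewer steers overlap less. Differences without single steers ran from -208.3 to 432.9 for high-level CEBPD, -0.0532 to 4.27 for middle-level CEBPD, -0.450 to 0.838 for low-level CEBPB and -0.0828 to 2.82 for high-level LEP.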

Other observations

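Among 6298 genes with 1 symbol and a level at or above the median, the 5 whose values over the 6 steers were most like ADIPOQ were SBDS (Pearson r = 0.983), PPARG (0.979), FAM32A (0.971), DECR1 (0.970) and MTERF4 (0.969), and 58 genes had r above 0.9. DECR1 is an enzyme of mitochondrial fatty acid oxidation. The 5 most like CFD were KBTBD4 (r = 0.981), RPL35 (0.970), AOAH (0.963), PSMD13 (0.963) and FAM193B (0.958), and 29 genes had r above 0.9. As CFD falls into 2 clusters by diet, these 5 are the genes that differ by diet in a like way, from 3.96 to 5.08 within-group SDs. Such correlations over 6 steers were picked as the highest of 6298 and are descriptions only.

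After the values of CEBPB and CEBPD had been seen, early response genes were looked at: ATF3, DUSP1, EGR1, FOS, JUNB, MYC and SOCS3. FOS and ATF3 were highest in restricted steer 2, at 110653 millionths for the FOS probe set with the wider range and 25299 for ATF3. Both were second highest in supplemented steer 2, at 65035 and 9767. Supplemented steer 2 was also one of the 2 steers high for CEBPB and CEBPD. The other, restricted steer 3, had 5082 for FOS and -3922 for ATF3. JUNB also had supplemented steer 2 second highest, at 41.0 millionths. That steer was not second highest for EGR1 (-468.0 in the probe set with the wider range), MYC (-3.82), DUSP1 (256.0) or SOCS3.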
